A study of Homo sapiens with 6 samples.

Results

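The 10 genes described here encode surface antigens used to define, sort or target leukaemia stem cells and blasts in acute myeloid leukaemia (AML): CD33, CD34, CD38, CD44, CD47, KIT, PROM1, CLEC12A, CD244 and CD96. They were taken by gene symbol from count tables of 23698 gene rows, and each symbol had 1 row in every library. The RNA came from MV4-11, an established AML line with monocytic features that carries an internal tandem duplication in FLT3. Cells stably transduced by lentivirus with a short hairpin RNA against PRMT5, the main arginine methyltransferase of symmetric dimethylation, gave 3 libraries. Cells stably transduced with a scrambled vector gave the other 3, and all were kept in the same serum-supplemented medium. The number of hairpin sequences and of independent transductions is not given in the sources used here. Only RNA was measured, so nothing below is a level of antigen on the cell surface.

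As background, surface antigens divide AML cells in several ways. In many patients, though not all, cells that start leukaemia in a mouse host are richest among CD34+ CD38- cells, and CD44, CD47, KIT, CD96 and CLEC12A have each been used to describe or target that fraction. CD33 and CLEC12A are inhibitory receptors of the myeloid lineage that are present on most blasts, and CD33 is the target of an antibody-drug conjugate used in AML. CD47 binds SIRPA on macrophages and restrains engulfment.

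The promoter sequences of 4 of these genes are shown first, because they span the set's range of CpG content and include the gene with the largest difference between the groups and the steadiest gene. Each runs 5′ to 3′ on the strand of its gene, from 250 bases before the RefSeq start to 50 bases from it (GRCh38.p14), and capitals mark CpG dinucleotides. CLEC12A lies at chr12:9971159-9971458 on the plus strand, CD33 at chr19:51224830-51225129 on the plus strand, CD47 at chr3:108090982-108091281 on the minus strand and KIT at chr4:54657707-54658006 on the plus strand.
CLEC12A: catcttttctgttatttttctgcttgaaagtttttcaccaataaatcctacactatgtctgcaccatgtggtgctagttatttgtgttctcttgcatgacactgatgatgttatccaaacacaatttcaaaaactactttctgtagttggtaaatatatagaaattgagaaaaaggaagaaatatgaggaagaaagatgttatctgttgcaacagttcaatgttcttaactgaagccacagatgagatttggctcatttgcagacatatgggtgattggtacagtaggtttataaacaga
CD33: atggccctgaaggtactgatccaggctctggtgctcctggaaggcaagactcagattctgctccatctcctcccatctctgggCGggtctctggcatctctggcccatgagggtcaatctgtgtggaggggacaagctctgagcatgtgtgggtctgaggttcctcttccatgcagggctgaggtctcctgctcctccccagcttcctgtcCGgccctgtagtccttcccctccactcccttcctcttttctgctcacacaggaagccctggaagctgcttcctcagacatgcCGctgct
CD47: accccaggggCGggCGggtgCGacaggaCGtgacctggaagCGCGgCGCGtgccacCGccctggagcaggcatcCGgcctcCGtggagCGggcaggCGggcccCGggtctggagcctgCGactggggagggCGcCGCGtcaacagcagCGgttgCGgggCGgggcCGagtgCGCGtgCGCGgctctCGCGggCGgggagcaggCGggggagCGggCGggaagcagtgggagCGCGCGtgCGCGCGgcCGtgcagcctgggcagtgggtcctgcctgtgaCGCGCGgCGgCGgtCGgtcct
KIT: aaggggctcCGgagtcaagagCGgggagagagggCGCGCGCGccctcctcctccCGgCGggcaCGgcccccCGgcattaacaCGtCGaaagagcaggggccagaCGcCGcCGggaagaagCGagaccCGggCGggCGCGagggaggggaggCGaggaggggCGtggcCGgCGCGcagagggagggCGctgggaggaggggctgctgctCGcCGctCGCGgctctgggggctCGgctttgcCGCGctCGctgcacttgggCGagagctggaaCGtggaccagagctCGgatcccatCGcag

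The libraries held 16408484 to 19077106 estimated counts. PRMT5 was at 103, 71.5 and 52.96 CPM in knockdown 1 to 3 (counts scaled to library size, CPM, corrected with TMM factors), against 133 CPM in control 1, 158 CPM in control 3 and 53.1 CPM in the library labelled control 2. That library's PRMT5 value thus goes against its label. The log2 CPM of that library correlated with the other 5 at 0.876 to 0.923 across genes, where the correlations among those 5 were 0.952 to 0.995. The 0.995 was between knockdown 3 and control 3, of opposite label, against at most 0.969 between libraries of the same label. PRMT5 had a log2 difference of −0.60 (SE 0.43, edgeR adjusted p = 0.926) over all libraries. Without the library labelled control 2 it was −0.94 (SE 0.28, edgeR adjusted p = 1.00, unadjusted p = 0.0137). That library stood out by its PRMT5 level, so its removal was bound to enlarge the difference. The second value is thus no check of the knockdown. Each log2 difference below is also given without the library labelled control 2 where its loss turned the direction or moved the value by over 1.5 times. The labels do not state separate cultures for the replicates, so each p-value reflects the spread among these 6 samples only, part of which may be technical. In bulk RNA, fewer cells with a transcript and less of it per cell cannot be told apart. Across 13668 genes, edgeR's quasi-likelihood test called 0 at an adjusted p under 0.05 (0.0%), while 242 (1.77%) had an unadjusted p below that value.

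Marker genes of 5 classes of cell were read in the same libraries to check the cell type. Of 10 myeloid and monocytic markers, 7 were at or above 10 CPM in every library, including SPI1 at 121 to 157 CPM and CEBPA at 357 to 685 CPM, while CD14, a marker of mature monocytes, was at 0.389 to 1.09 CPM. Of 10 T and NK cell markers, 8 were under 1 CPM in every library and CD2 and CD3E were at 0. The 2 others were NKG7 at 18.1 to 48.9 CPM and NCAM1, the CD56 gene, at 153 to 178 CPM. HBB, HBA1, HBA2 and PF4 of the erythroid and megakaryocytic list were at 0, as were KDR, COL1A2 and COL3A1 of the endothelial and fibroblast list. The highest gene of the first list was ITGA2B at 0.157 to 1.52 CPM in the knockdown libraries and 0.259 to 4.02 CPM in the controls. The highest of the second by its maximum was COL1A1, at 0.0522 to 0.108 CPM in the knockdown libraries and 0.0518 to 4.99 CPM in the controls, and by its mean PDGFRB, at 0.378 to 1.09 CPM and 0.414 to 2.27 CPM. ITGA2B, COL1A1 and PDGFRB all had their highest value in the library labelled control 2. Of 6 B cell markers, 5 were under 1 CPM, and PAX5 was at 5.96 to 15.6 CPM. None of these markers passed the edgeR test. It took in all 10 myeloid and monocytic genes (5 with a positive and 5 with a negative log2 difference, median −0.08, or 0.01 without the library labelled control 2), 2 T and NK, 2 B cell, 2 erythroid and megakaryocytic genes and 1 of the endothelial and fibroblast list.

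Of the 10 antigen genes, 5 were well expressed, defined as at least 10 CPM in all 6 libraries, a class that held 36.4% of all rows. These were CD44, CD47, CD33, CD244 and CD38. Both PROM1 and CD34 were absent, defined as under 1 CPM in all 6 libraries, a class that held 41.7% of rows. CLEC12A, CD96 and KIT were low or variable. Scaled by total counts alone, CD38 left the well expressed class, because the library labelled control 2 then fell below 10 CPM. CD244 held 10.02 CPM in knockdown 1, the value closest to the limit in the TMM scaling.

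**Figure D1:**
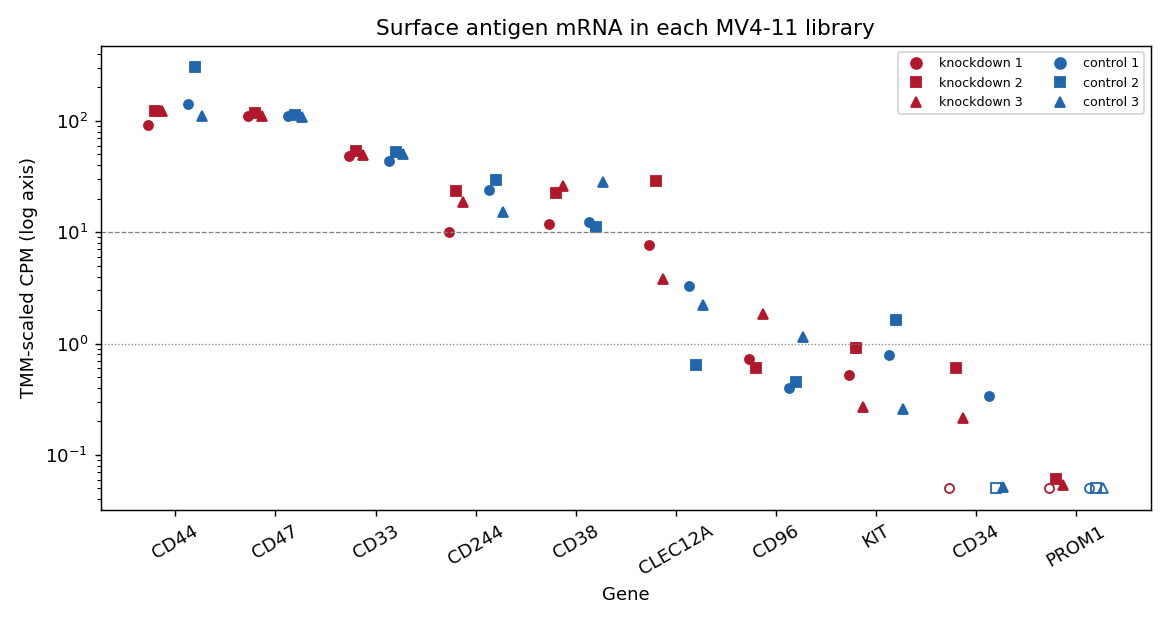
Each point is 1 library's TMM-scaled CPM on a log axis, for 10 genes ordered by their mean, with the 3 knockdown libraries (red) left of the 3 controls (blue) and the shape giving the replicate number. The dashed line is 10 CPM and the dotted line 1 CPM; open symbols are counts of 0, drawn at 0.05 CPM. CD47 and CD33 lie nearly level across libraries, CLEC12A is the gene whose red and blue points do not overlap, and CD34 and PROM1 lie at the bottom.

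Levels can be ordered between genes only per length, here CPM per kb of the union of exons in GENCODE release 29. On that scale CD44 averaged 14.9 ± 7.77, CD47 13.6 ± 0.364, CD33 8.32 ± 0.590 and CD244 7.01 ± 2.40 CPM per kb (SD over 6 libraries). CD38 averaged 2.73 ± 1.12 and CLEC12A 2.39 ± 3.27 CPM per kb, and CD96, KIT, CD34 and PROM1 followed at 0.149, 0.131, 0.0220 and 0.00257 CPM per kb. Of neighbours in this order, the libraries' ranges were apart between CD47 and CD33, and every other neighbouring pair overlapped. The top of the order rests on the library labelled control 2, where CD44 was at 30.4 CPM per kb: without it CD44 averaged 11.8 and CD47 13.5 CPM per kb, which puts CD47 first. It also depends on the length used. Per kb of the longest protein-coding transcript CD33 came first at 33.3, before CD44 at 26.0 and CD47 at 21.4 CPM per kb, since the exon union of CD33 spans 5975 bases and its longest coding transcript 1494.

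CD34, the sialomucin that marks stem and progenitor cells, was close to the floor of the assay. It had 0, 10 and 4 counts in knockdown 1 to 3, against 6, 0 and 1 counts for the libraries labelled control 1 to 3. The highest level was 0.607 CPM, in knockdown 2, and the groups overlapped. PROM1, the CD133 gene, had 0, 1 and 0.902 counts in knockdown 1 to 3, against 0 in each of the 3 controls. A count of 0 allows a level of up to 0.155 to 0.194 CPM in these libraries (3 counts, counting error only), so no difference in PROM1 was detectable at this depth. Neither gene entered the test.

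KIT, the receptor for stem cell factor, was barely detected. It had 10, 15.5 and 5.22 counts in knockdown 1 to 3, against 14.4, 25 and 5 counts for the libraries labelled control 1 to 3. Those counts correspond to 0.522, 0.910 and 0.270 CPM in the knockdown libraries and 0.794, 1.62 and 0.259 CPM in the controls. The highest value was in the library labelled control 2, and the groups overlapped. Knockdown minus control, the log2 difference was −0.64 (SE 0.74, 95% interval −2.37 to 1.09, edgeR adjusted p = 0.926), and it was 0.11 without the library labelled control 2. KITLG, which encodes the KIT ligand, was at 17.1, 17.8 and 12.9 CPM in knockdown 1 to 3, against 9.58, 12.2 and 9.42 CPM in the controls. The KITLG groups did not overlap, as was so in either direction for 6.23% of all tested genes. Its log2 difference of 0.62 (SE 0.27) did not pass the edgeR test (adjusted p = 0.926, unadjusted p = 0.0524). KITLG is named as the gene with the smallest p of the 11 tested ligands and counter-receptors.

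CD44, the hyaluronan receptor, had the highest mean CPM of the 10, with 1 control far above the other libraries. It was at 92.3, 121 and 122 CPM in knockdown 1 to 3, against 142 CPM in control 1, 111 CPM in control 3 and 304 CPM in the library labelled control 2. Control 3 lay below knockdown 2 and 3, so the groups overlapped. The log2 difference was −0.73 (SE 0.38, 95% interval −1.63 to 0.16, edgeR adjusted p = 0.926). Without the library labelled control 2 it was −0.18 (SE 0.21), and without control 3 it was −0.996 (SE 0.35, unadjusted p = 0.0232, edgeR adjusted p = 0.529). The tables give 1 value per gene, so the standard and variant splice forms of CD44 cannot be told apart.

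CD47, the SIRPA ligand, was the steadiest of the set. It was at 111, 117 and 111 CPM in knockdown 1 to 3, against 109.6, 114 and 108.8 CPM for the libraries labelled control 1 to 3. The highest library was 1.07-fold above the lowest. The log2 difference was 0.03 (SE 0.18, edgeR adjusted p = 0.982), with a 95% interval of −0.39 to 0.44. Without the library labelled control 2 every knockdown value lay above both controls, with a log2 difference of 0.05. The nearest were knockdown 3 at 110.7 and control 1 at 109.6 CPM. In that setting 10.1% of all tested genes had no overlap in either direction.

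CD33, a sialic acid-binding inhibitory receptor, was nearly as level. It was at 48.4, 53.7 and 48.96 CPM in knockdown 1 to 3, against 43.9, 52.7 and 50.6 CPM for the libraries labelled control 1 to 3. The groups overlapped, with a 1.22-fold span from lowest to highest. Its log2 difference of 0.04 (SE 0.19, 95% interval −0.41 to 0.49, edgeR adjusted p = 0.977) changed sign without knockdown 2 or without control 1, at −0.01 and −0.04, and was 0.10 without the library labelled control 2. The 95% intervals of CD33 and of CD47 both leave out a 2-fold difference in either direction.

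CLEC12A, the C-type lectin-like inhibitory receptor also called CLL-1, had the largest difference of the 8 tested genes. It was at 7.62, 28.9 and 3.78 CPM in knockdown 1 to 3, against 3.29, 0.648 and 2.23 CPM for the libraries labelled control 1 to 3. Every knockdown library lay above every control, although knockdown 3 and control 1 were close, and the highest library was 44.7-fold above the lowest. The underlying counts were 146, 477 and 70.1 in the knockdown libraries and 58.2, 9.63 and 43.3 in the controls. The Poisson 95% interval for knockdown 3 is 54.6 to 88.4 counts and for control 1 it is 44.0 to 75.0, and these intervals of the nearest libraries overlap. The log2 difference was 2.70 (SE 0.87, 95% interval 0.67 to 4.73), or 6.49-fold, and it did not pass the test (edgeR adjusted p = 0.926, unadjusted p = 0.0159).

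The size of the CLEC12A difference rested on both libraries numbered 2. Between libraries of the same number the log2 CPM difference was 1.18 for number 1, 5.26 for number 2 and 0.74 for number 3. Without knockdown 2 the fitted log2 difference was 1.46 (unadjusted p = 0.0805, edgeR), without the library labelled control 2 it was 2.29 (unadjusted p = 0.0344), and without both it was 1.05 (unadjusted p = 0.0700). By the p-value CLEC12A stood in place 16 of 13668 genes. Differences of at least its size were found in 32 genes, or 0.234% of those tested. LYZ, the lysozyme gene of the myeloid list, was at 544, 481 and 1267 CPM in knockdown 1 to 3, against 429, 35.2 and 980 CPM for the libraries labelled control 1 to 3. Both genes were thus lowest in the library labelled control 2, while knockdown 2 was highest for CLEC12A and not for LYZ. The 10 myeloid genes went both ways in the library labelled control 2, where 5 had their lowest value and 3, ITGAM at 115, CD68 at 139 and TYROBP at 33.8 CPM, their highest. Without that library the log2 difference of LYZ was 0.12, beside 0.67 over all. The summed myeloid list ranged from 1425 to 2108 CPM in the knockdown libraries and from 1060 to 1915 CPM in the controls. Without LYZ the sum was 841 to 1253 CPM in the knockdown libraries and 727 to 1485 CPM in the controls, and its part in the CLEC12A result was not tested.

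Whether neighbouring genes could lend reads to CLEC12A was checked in GENCODE release 29, since use of strand is not given in the sources used here. CLEC1B and CLEC12A-AS1 lie on the opposite strand and touch exons of CLEC12A. CLEC1B held 3.35, 5.88 and 0.647 counts in knockdown 1 to 3 and under 2 counts in each control, fewer than CLEC12A in every library. CLEC12A-AS1 was not analysed here, so its reads and those of CLEC12A cannot be told apart.

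**Figure D2:**
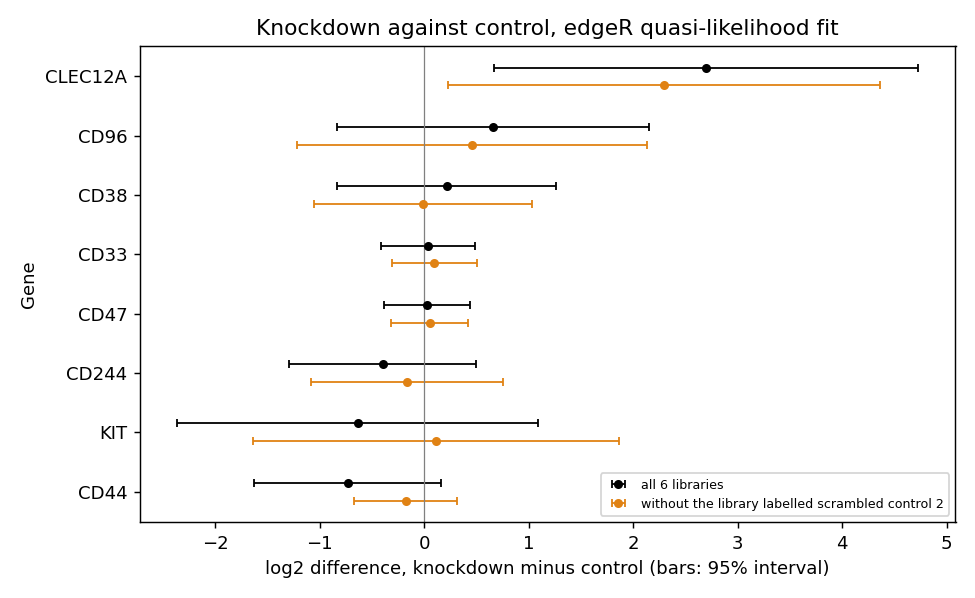
Points are log2 differences of knockdown minus control for the 8 tested genes, with 95% intervals from the edgeR quasi-likelihood fit, over all 6 libraries (black) and without the library labelled control 2 (orange). CLEC12A lies to the right at 2.70 and 2.29, CD44 moves to −0.18 without that library, and CD33 and CD47 have the narrowest intervals around 0.

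CD38, an ectoenzyme that consumes NAD and whose absence helps define the stem cell fraction, was at 11.9, 22.6 and 25.7 CPM in knockdown 1 to 3. For the libraries labelled control 1 to 3 it was at 12.4, 11.2 and 28.2 CPM. In pairs 1 and 3 the same-numbered libraries were close, and the groups overlapped. The log2 difference was 0.22 (SE 0.45, 95% interval −0.83 to 1.26, edgeR adjusted p = 0.936), and it was −0.01 without the library labelled control 2, −0.003 without knockdown 3 and 0.76 without control 3.

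CD244, the SLAM-family receptor 2B4, was at 10.02, 23.2 and 18.6 CPM in knockdown 1 to 3, against 23.7, 29.3 and 15.3 CPM for the libraries labelled control 1 to 3. Knockdown 1 was the lowest library and the groups overlapped. The log2 difference was −0.40 (SE 0.38, edgeR adjusted p = 0.926), at −0.13 without knockdown 1 and −0.17 without the library labelled control 2. CD96, a receptor of T and NK cells that binds PVR, had 14, 10 and 34 counts in the knockdown libraries, against 7, 7 and 22 counts in the controls. Its highest values were in both libraries numbered 3, at 1.84 CPM in knockdown and 1.14 CPM in control. The log2 difference was 0.66 (SE 0.64, edgeR adjusted p = 0.926). It was 0.00 without knockdown 3, 1.31 without control 3 (SE 0.70) and 0.46 without the library labelled control 2. Of the 10 T and NK cell markers, 8 were under 1 CPM in the same libraries, with CD2 and CD3E at 0. The others went the other way, NKG7 at 18.1 to 48.9 CPM and NCAM1 at 153 to 178 CPM.

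Counted together, 0 of the 8 tested antigen genes passed the edgeR test, and 1, CLEC12A, had an unadjusted p under 0.05. DESeq2 and limma-voom also called 0 of the 8 and gave 1 an unadjusted p under 0.05. Of the 8, 5 had a positive and 3 a negative log2 difference, with a median of 0.03 beside a median of −0.00069 over all tested genes. Groups did not overlap for 1 of 8, CLEC12A, where 6.23% of all tested genes showed no overlap in either direction and 3.13% had every knockdown library above every control. Without the library labelled control 2, 2 of 8 did not overlap, CD47 and CLEC12A, against 10.1% of all tested genes. Without both libraries numbered 2 the same 2 genes did not overlap, against 19.7% of tested genes, and with total counts only CLEC12A did not, against 6.02%. CD47, CLEC12A and CD96 were higher in the knockdown library of all 3 same-numbered pairs, as were 14.6% of tested genes.

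**Figure D3:**
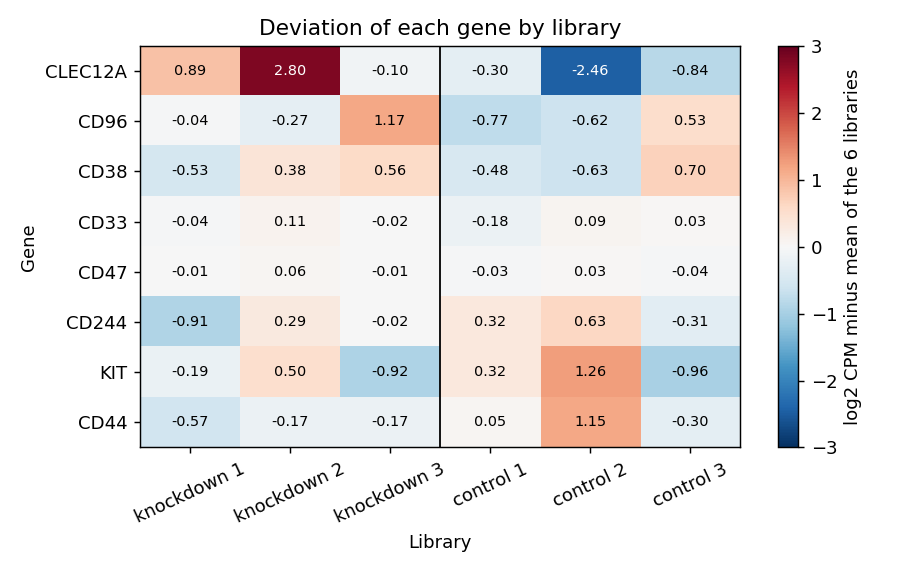
Cells give the log2 CPM of a gene in a library minus the gene's mean over the 6 libraries, with knockdown libraries left of the black line and controls right of it. CLEC12A runs from 2.80 in knockdown 2 to −2.46 in the library labelled control 2, CD44 and KIT are highest in that library at 1.15 and 1.26, and CD96 and CD38 are high in both libraries numbered 3.

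The 8 tested genes did not share 1 pattern across libraries. CD44, KIT and CD244 had their highest value in the library labelled control 2, at 1.15, 1.26 and 0.63 above their 6-library mean in log2 CPM. CLEC12A and CD38 had their lowest value there, at −2.46 and −0.63. For each well expressed gene the nearest genes were sought among 9845 others, by the root mean square difference of mean-centred log2 CPM over 6 libraries. Those nearest to CD44 were POMT1 (0.0285) and ARAP1 (0.0405), and those nearest to CD244 were PLCB2 (0.0746) and TUBA8 (0.0876). DNAJA1 (0.178) and RAD54B (0.194) were nearest to CD38, TRAM1 and CNST to CD33, and NCOA2 and TRIM6-TRIM34 to CD47. Within 2 times the smallest distance lay 280 genes for CD38, 38 for CD33, 23 for CD47, 6 for CD244 and 2 for CD44. The pairs named for CD38, CD33 and CD47 thus stand for many. That limit follows each gene's own smallest distance, so the counts cannot be compared between genes. They do not show that POMT1 and ARAP1 are particular to CD44. CD47 itself deviated from its mean by a root mean square of 0.0349, beside 0.0263 to NCOA2, so a flat profile would lie nearly as close.

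Ligands and counter-receptors of the antigens came next. Of 16 listed genes 11 were tested and none passed the edgeR test, where 10 had a positive log2 difference and 1 a negative one (median 0.54, smallest adjusted p = 0.926). Over all tested genes 6821 differences were positive and 6847 negative (median −0.00069). Without the library labelled control 2 the listed genes had 9 positive and 2 negative differences, with a median of 0.41. In that edgeR fit 1 listed gene, KITLG, had an unadjusted p under 0.05 (0.0204). THBS1, a secreted ligand of CD47, was at 32.9, 1.40 and 1.03 CPM in knockdown 1 to 3, against 4.59, 0.713 and 1.09 CPM in the controls, so 1 library carried its log2 difference of 2.46 (SE 1.38). PVRL1, a nectin, was at 11.2, 15.5 and 8.05 CPM in knockdown 1 to 3, against 8.16, 8.94 and 6.26 CPM in the controls. SPP1, which encodes the CD44 ligand osteopontin, was at 1.93, 14.1 and 2.54 CPM, against 42.7, 19.8 and 2.38 CPM in the controls. SPP1 had a log2 difference of −1.81 (SE 1.08), and its groups overlapped.

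Among 12 cytoplasmic partners, 10 were tested and none passed (7 positive, 3 negative, median 0.12, or 0.05 without the library labelled control 2). PTPN11, the SHP2 phosphatase that docks to inhibitory receptors such as CD33, was at 296, 280 and 264 CPM in knockdown 1 to 3, against 242, 206 and 267 CPM in the controls, and its log2 difference was 0.23, or 0.14 without the library labelled control 2. LYN, a SRC-family kinase, had a log2 difference of 0.36 (SE 0.26), and MSN, the moesin gene whose product links CD44 to actin, one of 0.29 (SE 0.30). Without the library labelled control 2 these were 0.16 and 0.05. The LYN groups did not overlap, at 152 to 182 CPM in the knockdown libraries and 87.0 to 147 CPM in the controls. The share of all tested genes without overlap in either direction was 6.23%. CRKL, an adaptor in KIT signalling, had −0.68 (SE 0.44), with 327 CPM in the library labelled control 2 and 98.6 to 124 CPM in the other 5, and its difference was 0.06 without it. The CD244 adaptor genes SH2D1A and SH2D1B were at 0 in every library.

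Of 29 other AML surface antigens, 24 were tested and none passed the edgeR test (8 positive, 16 negative, median −0.28, or −0.22 without the library labelled control 2). CD82, a tetraspanin, was at 58.8, 59.0 and 28.97 CPM in knockdown 1 to 3, against 37.4, 19.1 and 20.3 CPM in the controls, with a log2 difference of 0.94 (SE 0.38) and an unadjusted p of 0.0429. IL3RA, the CD123 gene, was at 61.4, 73.2 and 62.0 CPM, against 104, 102 and 62.9 CPM in the controls, a log2 difference of −0.45 (SE 0.25). CD27 had −1.31, at 0.607 to 0.757 CPM in the knockdown libraries and 0.828 to 2.98 CPM in the controls. At these low levels its groups did not overlap, as was so in either direction for 6.23% of all tested genes. CD52 had −1.46, at 0.939 to 6.25 CPM and 2.02 to 13.6 CPM, and its groups overlapped. Without the library labelled control 2 the difference of CD27 was −0.63 and of CD52 −1.04. IL3RA, CD99 and CSF2RA have rows on both X and Y with nearly the same counts, and the X row was used.

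Stem and progenitor transcription factors gave 5 positive and 4 negative differences among 9 tested of 12, and none passed (median 0.19). Without the library labelled control 2 there were 6 positive and 3 negative ones (median 0.06). MEIS1 and HOXA9 were at 101.5 and 296 CPM in the library labelled control 2, and in the other 5 they ranged from 18.3 to 32.9 CPM and from 78.5 to 96.2 CPM. Their log2 differences were −1.21 (SE 0.49) and −0.89 (SE 0.47), and without that library −0.43 (SE 0.24) and −0.08 (SE 0.17). MEIS1 was at 24.1, 18.3 and 29.6 CPM in knockdown 1 to 3, below control 1 at 32.1 and control 3 at 32.9 CPM. Its groups thus did not overlap with or without the library labelled control 2, whereas those of HOXA9 did. The edgeR unadjusted p of MEIS1 was 0.0394, or 0.112 without that library. FLI1 had −0.29 and MYB 0.46, the second 0.22 without the library labelled control 2. The MYB groups did not overlap either, with the lowest knockdown at 464.7 and the highest control at 461.5 CPM. Of all tested genes, 6.23% did not overlap in either direction. TAL1, ERG and GFI1B were under 1 CPM in all libraries, as CD34 was.

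The promoters were then set beside the levels, since the rule did not use them. RefSeq promoters matched all 10 symbols, PROM1 with 4 starts. The ratio of observed to expected CpG had a median of 0.579 over 35114 promoters. CLEC12A held 0 CpG in its 300 bases, CD244 2, CD33 3 and CD38 4, ratios of 0.00, 0.0939, 0.117 and 0.195. CD47 held 45 and KIT 38, ratios of 1.01 and 0.952. CD44 and CD34 held 18 and 19, and CD96 held 6. PROM1 held 18, 32, 24 and 6 at its starts 1 to 4, with its highest ratio, 0.906, at start 2. Levels did not follow this order. Of the genes with a CpG-rich start, CD47 was among the most abundant, KIT was barely detected and PROM1 was absent. The CpG-poor CD33 and CD244 were well expressed.

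**Figure D4:**
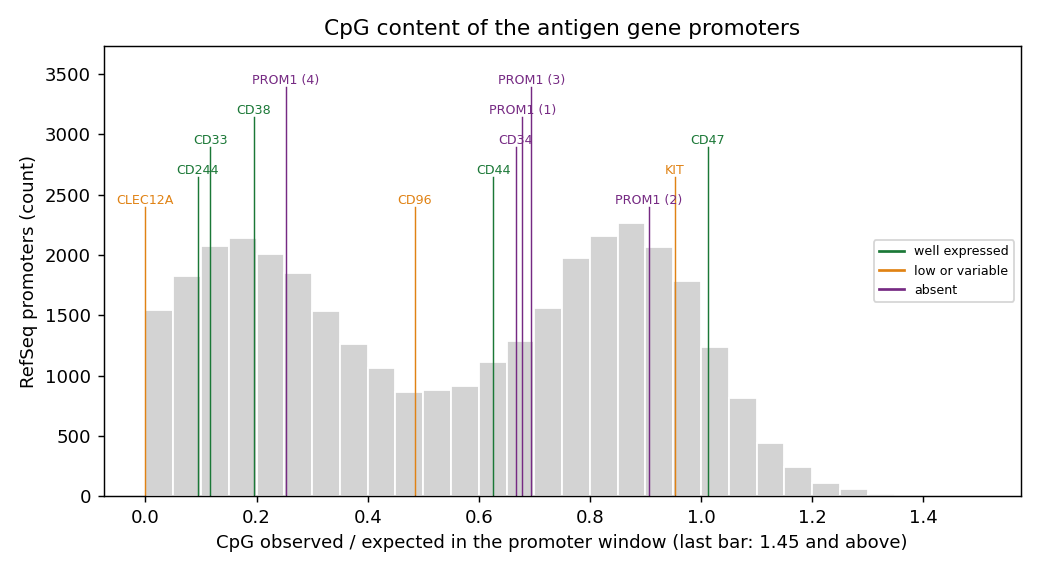
Grey bars count RefSeq promoters by the ratio of observed to expected CpG in 300 bases, and each line marks 1 promoter of the antigen genes, coloured by level class, with the start number in brackets for PROM1. Well expressed genes stand at both ends, from CD244 at 0.0939 to CD47 at 1.01.

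The hexamer GAGGAA, a core of sites bound by SPI1 and other ETS factors, was sought on both strands. It occurred in 27.9% of all promoters of this length, in 3 places in CD33 and in 1 each in CLEC12A and CD34. The other matches were in 2 of the PROM1 starts, and the remaining 6 genes held none. The hexamers AGATAA, a core of sites bound by GATA factors, and TATAAA, a core of the TATA box, were sought in the same way and occurred in 10.3% and 11.5% of all promoters. Among the antigen genes CLEC12A alone held them, AGATAA in 1 place and TATAAA in 2 that overlap on opposite strands. Both TATAAA matches lie after the start, at the end of the sequence above, so they do not mark a TATA box upstream of it. The GAGGAA match in CLEC12A begins 65 bases before the start, and the CD33 match shown begins 10 bases before it on the reverse strand, so it reads TTCCTC. Both are shown to locate them in the promoters above, and capitals mark the hexamer.
CLEC12A: aggaagaaatatGAGGAAgaaagatgttat
CD33: ccctccactcccTTCCTCttttctgctcac
A match is a description of letters and shows no binding. SPI1 itself was at 121 to 157 CPM over the 6 libraries.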

How the data were processed

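Poly(A) RNA-seq libraries of total RNA were made from MV4-11 cells, 3 per group, per the labels' protocols. Each library has 1 deposited table of estimated counts by gene row, without scaling to depth. CASAVA 1.9, TopHat2 version 2, edgeR and the build hg19 are named in the submitters' processing notes. How reads were assigned to genes, with which annotation and whether by strand, is not given in the sources used here. Between 40.3% and 42.3% of deposited counts were whole (tolerance 1e-06), so values were rounded before modelling.

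The test was edgeR 4.0.16 (R 4.3.3) on genes kept by filterByExpr (minimum count 10), with TMM factors, glmQLFit and glmQLFTest, group as the only term, two-sided, with Benjamini-Hochberg adjustment over 13668 genes and a threshold of 0.05. All adjusted p-values come from it. The log2 CPM values used a prior count of 2. Of the 10 antigen genes, 8 passed the filter. With 3 libraries a group, the smallest p of an exact permutation test is 0.1, so none was run. The test was checked on simulated data with independent libraries and the same dispersion for every gene. That check does not cover a library that stands apart or a correlation between same-numbered libraries.

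Deviations from group means correlated at 0.127, 0.394 and 0.566 for same-numbered libraries, each above 0.1, so these are called pairs, although knockdown 2 and control 1 correlated at 0.164; the labels state no pairing. A fit with that block was an alternative, beside scaling by RLE, by upper quartile or by totals alone, 2 other filters, DESeq2 1.42.0, limma-voom 3.58.1 and each library left out. Fits without a library kept the 13668 genes.

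The genes, lists and rules were chosen with earlier results of these data known. Genes named are the 10 antigens, PRMT5, up to 4 per list with the smallest p, the highest gene of each marker list, and 2 nearest genes per well expressed antigen (mean of at least 5 CPM, official symbol). CEBPA, CD2, CD3E, SPI1, SH2D1A, SH2D1B, TAL1, ERG, GFI1B, CD99, CSF2RA, COL1A1, ITGAM, the genes listed at 0 and the exon neighbours were named after their values were seen. Gene lengths and overlaps came from GENCODE release 29 and promoters from RefSeq, both of GRCh38, matched by symbol.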

Additional observations from a re-analysis of the deposited data

How the results depend on the processing

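None of the 8 tested antigen genes, and none of all tested genes, had an adjusted p under 0.05 under any of the 15 alternatives. Of 118 antigen values under those alternatives, 112 kept their direction and 6 turned. CD33 turned without knockdown 2 (−0.012) and without control 1 (−0.037), CD38 without knockdown 3 (−0.003), without the library labelled control 2 (−0.012), and without both libraries numbered 2 (−0.11), and KIT without the library labelled control 2 (0.11). With 1 library left out the log2 difference ranged from −0.04 to 0.10 for CD33, −0.01 to 0.76 for CD38, −1.14 to 0.11 for KIT, −0.996 to −0.18 for CD44, 0.00 to 1.31 for CD96, −0.67 to −0.13 for CD244, 0.00 to 0.05 for CD47 and 1.46 to 3.20 for CLEC12A. The adjusted p of CLEC12A ranged from 0.529 to 1.00. With the replicate number as a block its log2 difference was 2.20 (edgeR unadjusted p = 0.0523), and the block called 0 genes (436 had an unadjusted p below 0.05), so it changed no call. In DESeq2 its unadjusted p was 0.000737, and DESeq2 called 0 genes (461 had an unadjusted p below 0.05). The number of antigen genes whose groups did not overlap was 2 without the library labelled control 2 and 2 without both libraries numbered 2, where 19.7% of all tested genes did not overlap; these, and the levels per kb and list values without the library labelled control 2, were chosen after seeing the data. Log2 differences had a median SE of 0.33, and 5 to 34 counts per library set the precision for KIT and CD96.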
